A study of Mus musculus with 6 samples.

Results

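The eukaryotic translation initiation factor genes were compared between ISO-treated and saline-treated mouse left ventricles. They were taken by name, as every gene symbol that starts with Eif and a digit and has a mean of at least 1 FPKM over the 6 libraries. FPKM is the number of sequenced fragments divided by gene length in kilobases and by library depth. The rule gave 53 genes of the 55 symbols with that name, among 12269 genes that passed the same minimum. It used the mean over both groups and not the difference between them. The genes left out were Eif5a2, which averaged 0.950 FPKM, and Eif4e1b, which is listed at 0 in every library. The lowest members were Eif2ak3 at 3.56 FPKM, Eif3j2 at 3.82 FPKM and Eif2b3 at 4.24 FPKM, so no member lay near the minimum.

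RNA sequencing was done on polyadenylated RNA from left ventricles of male C57BL/6 mice. The 3 ISO libraries, which the labels call the heart failure group, came from mice injected under the skin with ISO at 10 mg/kg/d for 3 weeks. The 3 saline libraries, called the sham group, came from mice given an equal volume of saline in place of ISO. ISO is the usual abbreviation of isoproterenol, an agonist of beta-adrenergic receptors, and no genotype or allele differs between the groups in the labels. Neither the number of animals behind a library nor any cardiac measurement is given in the labels, and the p-values therefore reflect only how much these libraries vary. The series title names Cpeb4 and the splicing of Eif4a2, but splice forms were not analysed here because each value covers a whole gene.

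Translation initiation brings a ribosome to the start codon of an mRNA. The cap-binding complex eIF4F, made of the cap-binding protein eIF4E, the scaffold eIF4G and the RNA helicase eIF4A, prepares the mRNA. The small ribosomal subunit carries eIF1, eIF1A, eIF3 and eIF5 together with eIF2, which delivers the initiator tRNA, and scans for the start codon. Phosphorylation of eIF2 by stress kinases and sequestration of eIF4E by its binding proteins are the best known brakes on this process. In heart muscle, cell growth under adrenergic load depends on protein synthesis.

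Depth and library quality differed between samples. The recovered library totals were 5154283 to 7378782 reads in ISO and 2776152 to 9862363 reads in saline. Saline 3 had the lowest total and stood apart. Across genes, Pearson r between it and each other library was 0.788 to 0.830, against 0.918 or more among the other 5, and genes longer than 3000 bases held 44.1% of its reads, against 54.2% to 57.4% in the others. The fold change of a named gene is therefore also given without saline 3 where that changes its sign or moves it by over 1.5 times. The ventricular cardiomyocyte markers summed to 12807 to 21933 FPKM in ISO, against 30214 to 47104 FPKM in saline, so heart muscle genes were abundant in every library, and 4 of the 8 lay lower in every ISO library than in any saline library.

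Markers of other cell types were also present. The summed level was 1178 to 1242 FPKM in ISO, against 527 to 852 FPKM in saline for 5 fibroblast markers. For 5 macrophage markers it was 266 to 431 FPKM in ISO, against 138 to 250 FPKM in saline. For 5 erythroid markers it was 5632 to 5963 FPKM in ISO, against 724 to 1958 FPKM in saline. In each of these 3 lists, 4 of 5 genes lay higher in every ISO library than in any saline library. The endothelial, smooth muscle, adipocyte, atrial and lymphocyte sums overlapped between the groups but differed between libraries. The 4 atrial markers summed to 15120 to 17994 FPKM in ISO, against 10422 (saline 3) to 26352 FPKM in saline. In ISO 3 this sum (15120 FPKM) was above the ventricular one (12807 FPKM). The adipocyte sum was 1424 FPKM in ISO 3, against 119 to 468 FPKM in every other library. The endothelial sum was 49.8 FPKM in saline 3, against 164 FPKM or more in the others. Cd3e and Nkg7 of the lymphocyte list were at 0 in at least 1 library. Initiation factors are expressed in all of these cell types, and the part of the cell mixture in the results below was not tested. In bulk tissue, fewer cells of a type and less RNA per cell cannot be told apart.

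The start regions of the genes are shown because initiation factors share known promoter elements. Promoters from RefSeq on GRCm38.p6 were matched for 42 of the 53 genes. The E-box CACGTG is a palindrome that reads the same on both strands and is the preferred site of the MYC and USF families. It was found in the 250 bases before an annotated start of 8 of the 42 genes (19.0%). Of 27025 genes with a promoter in the same table, expressed here or not, 6.86% had it. The members had passed a minimum level, so these shares cover unlike sets. The 8 genes were Eif1b, Eif3f, Eif3k, Eif4a1, Eif4e, Eif4g1, Eif4h and Eif5a, so the list holds a member of each part of eIF4F. The 4 of them that form or stimulate eIF4F are printed with the E-box in capitals, 5′ to 3′ on the gene's own strand.
Eif4e: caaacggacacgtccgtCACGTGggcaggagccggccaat
Eif4g1: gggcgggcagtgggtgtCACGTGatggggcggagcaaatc
Eif4a1: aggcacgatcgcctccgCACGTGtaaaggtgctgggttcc
Eif4h: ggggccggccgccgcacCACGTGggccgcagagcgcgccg
On GRCm38.p6 these stretches are chr3:138527187-138527226 (plus strand) for Eif4e, chr16:20672656-20672695 (plus strand) for Eif4g1, chr11:69672590-69672629 (minus strand) for Eif4a1 and chr5:134639483-134639522 (minus strand) for Eif4h. The first base of the printed E-box lay 64 bases before the second of 2 annotated starts in Eif4e. It lay 54 bases before the single annotated start in Eif4g1, 189 bases in Eif4a1 and 96 bases in Eif4h. The window of Eif4e held 2 E-boxes, of which the one nearer the start is printed, and the windows of the others held 1 each. A match describes the letters of the window only.

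A second element is the 5′ terminal oligopyrimidine tract, a C at the first base of the transcript followed by a run of C or T, through which mTOR controls the translation of ribosomal protein mRNAs and some factors. A C followed by at least 4 pyrimidines, read on the gene's own strand, stood at an annotated start of 2 of the 42 genes (4.76%). The share was 3.01% of all genes in the table, again not limited by level. The 2 genes were Eif2s3x and Eif3f. They are printed around the start, with the pyrimidine run in capitals, beside Eif2s3y, the Y-linked partner of Eif2s3x.
Eif2s3x: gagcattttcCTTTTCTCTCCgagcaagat
Eif3f: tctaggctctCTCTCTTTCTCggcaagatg
Eif2s3y: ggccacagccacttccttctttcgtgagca
On GRCm38.p6 they lie at chrX:94212632-94212661 (minus strand), chr7:108934405-108934434 (plus strand) and chrY:1010585-1010614 (plus strand). The runs of Eif2s3x and Eif3f were 11 bases long. The annotated start of Eif2s3y is an A, not a pyrimidine, but a run of C or T (cttccttctttc) follows it directly. The contrast therefore rests on where that start is placed.

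Most initiation factors were well expressed, and levels differed more between genes than between libraries. The mean over all libraries ranged from 3.56 FPKM for Eif2ak3 to 521 FPKM for Eif1, with a median of 31.5 FPKM. The members held 10 to 6645 reads per library. Summed over the 53 genes, the level was 3005, 3113 and 3208 FPKM in ISO 1 to 3, against 2747, 2716 and 3282 FPKM in saline 1 to 3. The ISO sums thus lay above those of saline 1 and 2 and below that of saline 3. As a share of all FPKM in a library, the members made up 0.673%, 0.684% and 0.691% in ISO 1 to 3, against 0.579%, 0.619% and 0.561% in saline 1 to 3, and these shares did not overlap. All FPKM summed to 584835 in saline 3 and to 438433 to 474153 in the other libraries.

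**Figure D1:**
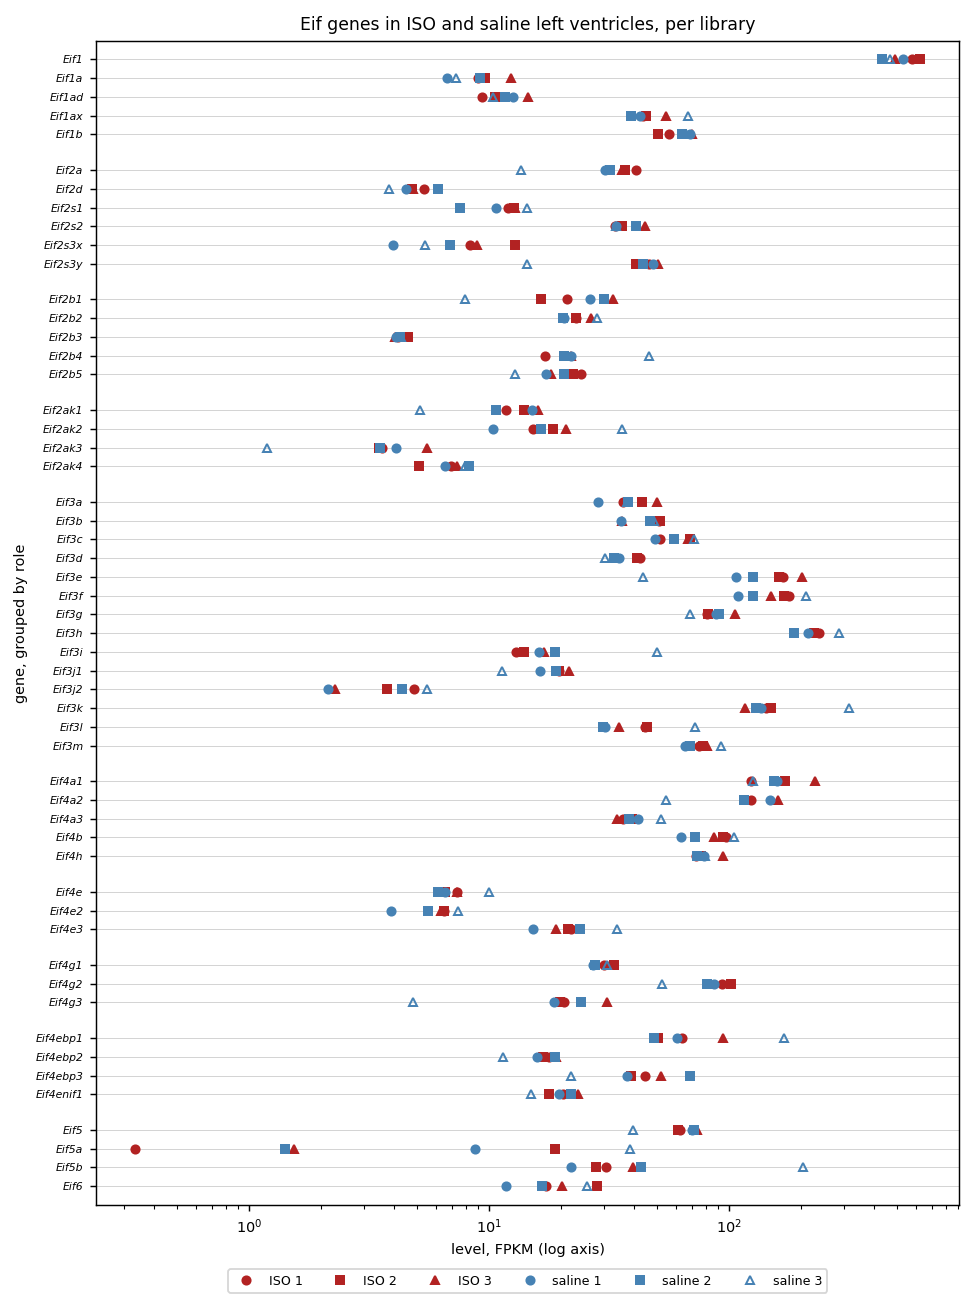
Level of each of the 53 initiation factor genes in FPKM on a log axis, by role, with 1 point per library (ISO red, saline blue, open triangle saline 3). Means run from 3.56 FPKM for Eif2ak3 to 521 FPKM for Eif1, and saline 3 is the lowest or highest library for 39 of the genes.

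No initiation factor gene passed the test between ISO and saline. By limma with Benjamini-Hochberg adjustment over all 12269 genes, none of the 53 members (0) were called at an adjusted p of 0.05, as were 0% of all genes in either direction, and the smallest adjusted p of a member was 0.699. At an unadjusted p under 0.05 there were 2 members, Eif2s3x and Eif3e, both higher in ISO, where 4.92% of all genes were higher and 1.39% lower. The log2 fold change on the log2(FPKM + 1) scale was above 0 for 38 members and below 0 for 15. That is 71.7% of the members above 0, near the 68.1% of all genes, and the median was 0.13 for the members and 0.20 for all genes. After median-of-ratios scaling the median of all genes was 0.02, and the members' median was −0.08 with 24 of 53 above 0, so the direction of the group turned with the scaling.

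With sample quality weights, limma called 3 members, all higher in ISO, where it called 4.25% of all genes higher and 2.01% lower. The weights were 1.63, 5.50 and 0.449 for ISO 1 to 3 and 3.08, 1.04 and 0.0772 for saline 1 to 3, so ISO 2 and saline 1 counted most. Leaving out saline 3 with equal weights called 0 members. The 3 members called with the weights were Eif2s3x, Eif3f and Eif4b. Their log2 fold changes were 1.15, 0.57 and 0.52, with adjusted p of 0.0274, 0.0422 and 0.0463 (limma with the weights). Eif3f and Eif4b were thus chosen after their values were seen.

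For 4 members all 3 ISO libraries lay above all 3 saline libraries, and for 0 all lay below. The 4 were Eif2s3x, Eif2a, Eif3e and Eif3j1, or 7.55% of the members, where 12.8% of all genes lay above and 3.72% below. Of the libraries left out one at a time, saline 3 changed this count most. It was the lowest library for 18 members and the highest for 21, or 73.6% of the members, close to 75.2% of all genes. All genes were more often lowest (52.8%) than highest (22.4%) there. Against saline 1 and 2 alone, the ISO libraries were all higher for 16 members (30.2%, against 18.3% of all genes) and all lower for 0 (9.61% of all genes). The 16 were Eif1ax, Eif2a, Eif2b2, Eif2s1, Eif2s3x, Eif3e, Eif3f, Eif3h, Eif3j1, Eif3l, Eif3m, Eif4b, Eif4e, Eif4e2, Eif4g1 and Eif6. When the 5 libraries were rescaled by the median of ratios, a setting chosen after seeing the data, 13 members lay higher and 4 lower, against 13.0% and 14.5% of all genes. The 4 lower genes were then Eif2ak4, Eif2b4, Eif3i and Eif5.

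The saline group spread more widely than the ISO group. The median SD of log2 values was 0.19 in ISO and 0.37 in saline, and 0.15 between saline 1 and 2. Over all genes these were 0.24, 0.48 and 0.16, so the wider saline spread was not particular to the members. The recovered lengths of the genes had a median of 2513 bases. In the 28 members up to that length, the median log2 difference of saline 3 from the mean of saline 1 and 2 was 0.22, against 0.04 in the 25 longer ones. Over all members it was 0.06, and over all genes −0.38. Eif2b3, a subunit of the exchange factor eIF2B, was the most even member, with 4.17, 4.59 and 4.05 FPKM in ISO 1 to 3 and 4.08, 4.26 and 4.30 FPKM in saline 1 to 3. Eif5a was the most uneven, with a 115-fold span between libraries.

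**Figure D2:**
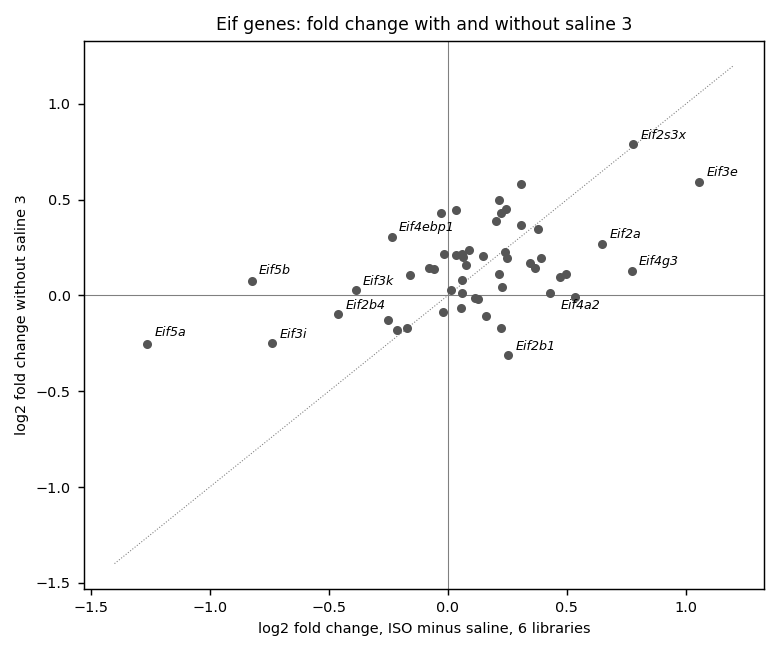
Log2 fold change (ISO over saline) of each of the 53 genes from all 6 libraries on the x axis and without saline 3 on the y axis, both on the log2(FPKM + 1) scale, with the diagonal. Eif2s3x is at 0.78 and 0.79, while Eif3e moves between 1.06 and 0.59, Eif5b between −0.82 and 0.07 and Eif5a between −1.26 and −0.25.

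eIF2, the carrier of the initiator tRNA, and the related factors Eif2a and Eif2d lay above 0 together. All 6 genes had a fold change above 0, with a median of 0.38. After median-of-ratios scaling it was 4 of 6 with a median of 0.17, and without saline 3 it was 4 of 6 with a median of 0.14. Their summed level was 146, 144 and 158 FPKM in ISO 1 to 3, against 132, 137 and 85.3 FPKM in saline 1 to 3. The sums did not overlap, and saline 3 was the lowest.

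Eif2s3x encodes the gamma subunit of eIF2 from the X chromosome (chrX:94188707-94212862, minus strand, GRCm38). It had 8.31, 12.9 and 8.89 FPKM in ISO 1 to 3, against 3.99, 6.90 and 5.42 FPKM in saline 1 to 3. Every ISO library was above every saline library, and saline 3 lay between the other saline libraries. The means were 10.0 ± 2.48 FPKM in ISO and 5.43 ± 1.45 FPKM in saline (SD, n = 3 each). This gave a log2 fold change of 0.78 with an SE of 0.29 (limma, unadjusted p = 0.0295, adjusted p = 0.699), and it was 0.79 without saline 3. Of its 50-base stretches, 34.6% also occur in transcripts of other genes, above all Gm2223, and no source used here says how shared reads were counted. Its start carries the pyrimidine run printed above.

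Eif2s3y encodes the same subunit from the Y chromosome (chrY:1010543-1028847, plus strand). It had 46.5, 41.0 and 50.6 FPKM in ISO 1 to 3, against 48.3, 43.9 and 14.4 FPKM in saline 1 to 3. The groups overlapped and only saline 3 was far below the rest. The Y-linked copy was the more abundant per length in all 6 libraries, by 5.59, 3.18 and 5.69 times in ISO 1 to 3 and by 12.1, 6.36 and 2.65 times in saline 1 to 3. The spread of this ratio within saline was larger than the difference between the groups.

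Eif2a encodes a separate protein that can bring initiator tRNA to the ribosome. It had 40.9, 36.8 and 35.6 FPKM in ISO 1 to 3, against 30.4, 31.8 and 13.6 FPKM in saline 1 to 3. All ISO libraries were higher, but the gap to saline 1 and 2 was small beside that to saline 3. The log2 fold change was 0.65 with an SE of 0.34 (limma, adjusted p = 0.699), and 0.27 without saline 3.

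The other eIF2 genes overlapped between the groups. Eif2s1, the alpha subunit that the stress kinases phosphorylate, had 11.95, 12.7 and 12.8 FPKM in ISO 1 to 3, against 10.7, 7.60 and 14.4 FPKM in saline 1 to 3. Eif2s2, the beta subunit, had 33.4, 35.7 and 44.8 FPKM in ISO 1 to 3, against 33.9, 41.1 and 33.7 FPKM in saline 1 to 3. Eif2d, a factor that recruits tRNA without GTP, had 5.34, 4.78 and 4.84 FPKM in ISO 1 to 3, against 4.51, 6.12 and 3.85 FPKM in saline 1 to 3. Its log2 fold change of 0.06 (SE 0.25, limma, adjusted p = 0.933) became −0.07 without saline 3 and −0.12 after median-of-ratios scaling.

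The stress branch around eIF2 showed no shared direction. Of the eIF2B genes, which recharge eIF2 with GTP, 4 were above 0 and 1 was below, with a median of 0.09 that was 0.03 without saline 3, and 2 of 5 were above 0 after median-of-ratios scaling. Eif2b5, the catalytic subunit, had 24.1, 22.3 and 18.2 FPKM in ISO 1 to 3, against 17.3, 20.6 and 12.8 FPKM in saline 1 to 3. Its log2 fold change was 0.34 with an SE of 0.26 (limma, adjusted p = 0.699), and 0.17 without saline 3. Eif2b4, a regulatory subunit, had 17.03, 20.5 and 22.0 FPKM in ISO 1 to 3, against 21.9, 20.5 and 46.3 FPKM in saline 1 to 3. Saline 3 alone was high, and the log2 fold change was −0.46 with an SE of 0.34 (limma, adjusted p = 0.699) and −0.10 without it. Eif2b1 had the same library at the other end, with 21.1, 16.4 and 32.7 FPKM in ISO 1 to 3, against 26.3, 30.2 and 7.98 FPKM in saline 1 to 3. Eif2b2 ranged from 23.1 to 26.6 FPKM in ISO and from 20.3 to 28.3 FPKM in saline.

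The 4 kinases that phosphorylate eIF2 respond to different stresses, and 2 of them were above 0 and 2 below. Eif2ak1, the heme-regulated kinase HRI, had 11.8, 14.0 and 16.0 FPKM in ISO 1 to 3, against 15.1, 10.7 and 5.17 FPKM in saline 1 to 3. In log2 terms its fold change was 0.50 with an SE of 0.37 (limma, adjusted p = 0.699), and 0.11 without saline 3. Eif2ak4, the amino acid sensor GCN2, had 6.95, 5.10 and 7.35 FPKM in ISO 1 to 3, against 6.56, 8.28 and 7.98 FPKM in saline 1 to 3, with a log2 fold change of −0.21 (SE 0.25, limma, adjusted p = 0.744). Both overlapped between the groups. Eif2ak2, the double-stranded RNA sensor PKR that interferon induces, had 15.3, 18.4 and 20.9 FPKM in ISO 1 to 3, against 10.4, 16.5 and 35.7 FPKM in saline 1 to 3. Eif2ak3, the endoplasmic reticulum kinase PERK, had 3.59, 3.47 and 5.52 FPKM in ISO 1 to 3, against 4.08, 3.52 and 1.18 FPKM in saline 1 to 3. Saline 3 was highest for PKR and lowest for PERK.

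eIF3 is the largest factor, a scaffold on the small ribosomal subunit, and its 14 genes made up the largest group. Their summed level was 1145, 1153 and 1147 FPKM in ISO 1 to 3, against 932, 976 and 1346 FPKM in saline 1 to 3. The ISO libraries were nearly equal, and lay between saline 2 and saline 3. Of the 14 genes 11 had a fold change above 0 and 3 below, with a median of 0.07 that was 0.20 without saline 3, while after median-of-ratios scaling 5 were above 0.

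Eif3e encodes subunit e, which is not part of the core shared with budding yeast (chr15:43250058-43282719, minus strand). It had 168, 162 and 202 FPKM in ISO 1 to 3, against 107, 126 and 43.9 FPKM in saline 1 to 3. The groups did not overlap, and saline 3 was far below saline 1 and 2. The means were 177 ± 21.8 FPKM in ISO and 92.5 ± 43.1 FPKM in saline (SD, n = 3 each). On the log2 scale the fold change was 1.06 with an SE of 0.40 (limma, unadjusted p = 0.034, adjusted p = 0.699), and 0.59 without saline 3.

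Further eIF3 genes fell under the naming rule. Eif3j1, the loosely bound subunit j, had 19.6, 19.6 and 21.6 FPKM in ISO 1 to 3, against 16.3, 18.9 and 11.3 FPKM in saline 1 to 3. Its groups did not overlap, but ISO 1 and saline 2 lay close together, and the log2 fold change was 0.39 with an SE of 0.25 (limma, adjusted p = 0.699) and 0.19 without saline 3. Of its 50-base stretches 36.9% occur in other genes, and 91.8% of those of its copy Eif3j2 do, so reads may be split between them. Eif3i, a core subunit, had 13.0, 14.0 and 16.9 FPKM in ISO 1 to 3, against 16.1, 18.9 and 49.9 FPKM in saline 1 to 3. ISO 3 lay above saline 1, and the log2 fold change was −0.74 with an SE of 0.42 (limma, adjusted p = 0.699) and −0.25 without saline 3.

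Several eIF3 subunits were higher in ISO than in saline 1 and 2 but highest in saline 3. Eif3f, a subunit whose protein is degraded in wasting skeletal muscle and whose start carries the other pyrimidine run, had 178, 169 and 149 FPKM in ISO 1 to 3, against 109, 126 and 210 FPKM in saline 1 to 3. Eif3l had 44.5, 45.6 and 34.8 FPKM in ISO 1 to 3, against 30.3, 29.8 and 72.1 FPKM in saline 1 to 3. Eif3h had 237, 225 and 230 FPKM in ISO 1 to 3, against 213, 186 and 287 FPKM in saline 1 to 3. The same order held for Eif3m, at 74.8 to 80.7 FPKM in ISO, against 65.3 to 92.5 FPKM in saline. Eif3k was close to equal apart from saline 3, with 143, 150 and 116 FPKM in ISO 1 to 3, against 136, 129 and 317 FPKM in saline 1 to 3. Eif3a and Eif3b, large core subunits, were not highest in saline 3. Eif3a had 36.1, 43.2 and 50.2 FPKM in ISO 1 to 3, against 28.3, 38.1 and 37.7 FPKM in saline 1 to 3. Eif3b ranged from 35.9 to 51.7 FPKM in ISO and from 35.6 to 48.6 FPKM in saline, and Eif3d, which can itself bind the cap of some mRNAs, from 33.7 to 42.7 FPKM in ISO and from 30.5 to 34.9 FPKM in saline. Eif3c ranged from 51.4 to 68.5 FPKM in ISO and from 48.9 to 71.7 FPKM in saline, Eif3g from 81.2 to 106 FPKM in ISO and from 68.5 to 91.2 FPKM in saline, and Eif3j2 from 2.28 to 4.87 FPKM in ISO and from 2.14 to 5.51 FPKM in saline.

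**Figure D3:**
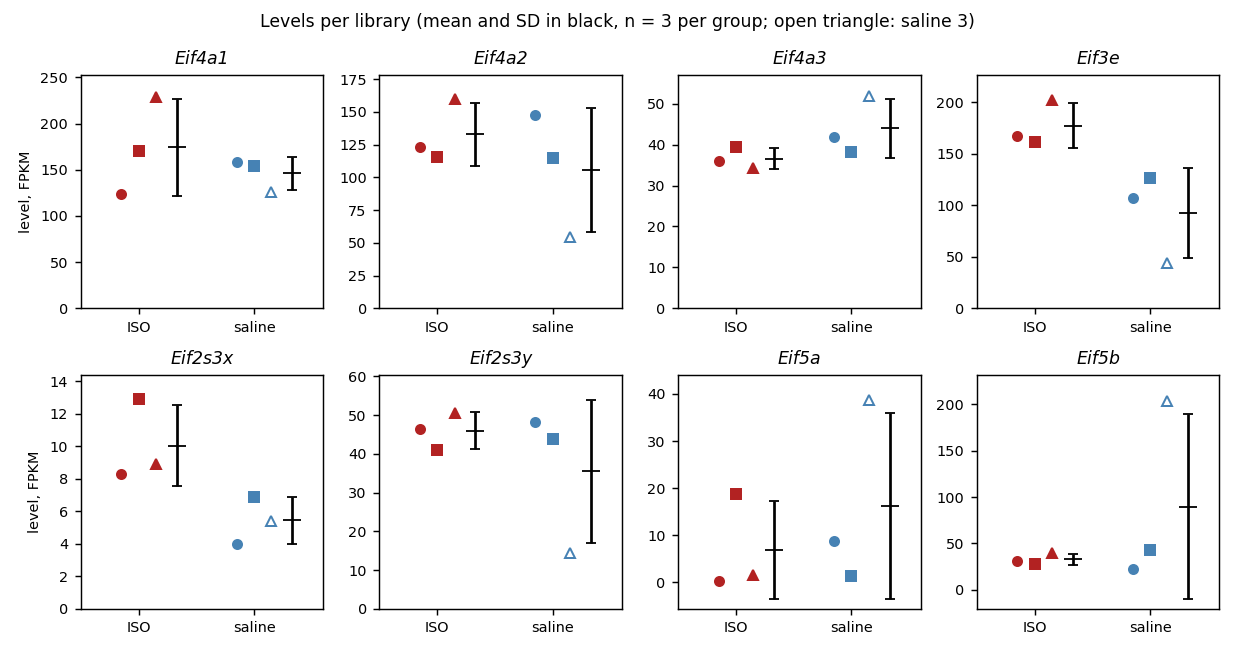
Level in FPKM of Eif4a1, Eif4a2, Eif4a3, Eif3e, Eif2s3x, Eif2s3y, Eif5a and Eif5b in each library (ISO red, left of saline, blue; circle, square and triangle for replicates 1, 2 and 3, open triangle saline 3), with black marks for the mean and SD of 3 libraries. Eif3e and Eif2s3x are the genes here whose ISO points all lie above the saline points, and saline 3 is far from saline 1 and 2 for Eif5b, with 204 FPKM.

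The eIF4A genes, among them the helicase of the series title, did not differ between ISO and saline beyond the spread of the libraries. Eif4a1 (chr11:69666936-69672423, minus strand) had 124, 170 and 229 FPKM in ISO 1 to 3, against 158, 154 and 126 FPKM in saline 1 to 3. ISO 1 was the lowest and ISO 3 the highest library, so the ISO values enclosed all saline values. The means were 174 ± 52.7 FPKM in ISO and 146 ± 17.6 FPKM in saline (SD, n = 3 each), and the log2 fold change was 0.22 with an SE of 0.28 (limma, adjusted p = 0.764), and 0.11 without saline 3. Of its 50-base stretches 28.4% occur in other genes.

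Eif4a2 (chr16:23107444-23114136, plus strand) is a close paralogue of Eif4a1 that is also known to act in microRNA repression. It had 123, 115 and 160 FPKM in ISO 1 to 3, against 148, 115 and 54.4 FPKM in saline 1 to 3. The groups overlapped, and saline 3 was the lowest library with 504 reads and a 95% exact Poisson interval of 49.7 to 59.3 FPKM, which covers counting error only. The means were 133 ± 23.9 FPKM in ISO and 106 ± 47.4 FPKM in saline (SD, n = 3 each). This gave a log2 fold change of 0.43 with an SE of 0.39 (limma, adjusted p = 0.701), and 0.01 without saline 3. Its exons overlap 7 other annotated genes, small RNAs of its introns among them, and no source used here gives the strand setting of the counting.

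Eif4a3, the helicase of the exon junction complex rather than of initiation, had 36.0, 39.4 and 34.2 FPKM in ISO 1 to 3, against 41.8, 38.1 and 52.0 FPKM in saline 1 to 3. Only ISO 2 and saline 2 crossed, and the log2 fold change was −0.25 with an SE of 0.22 (limma, adjusted p = 0.701), and −0.13 without saline 3. Eif4b and Eif4h stimulate eIF4A. Eif4b had 97.1, 94.7 and 86.4 FPKM in ISO 1 to 3, against 63.2, 71.9 and 105 FPKM in saline 1 to 3, so the ISO libraries were above saline 1 and 2 and below saline 3. It is among the members called with sample quality weights, as given above. Eif4h, one of the E-box genes, ranged from 73.1 to 94.0 FPKM in ISO and from 73.6 to 79.7 FPKM in saline.

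The cap-binding genes were expressed at lower levels per length than the helicases. Eif4e had 7.32, 6.56 and 7.35 FPKM in ISO 1 to 3, against 6.55, 6.13 and 10.0 FPKM in saline 1 to 3. Eif4e2, a cap-binding protein that can repress translation, had 6.50, 6.52 and 6.29 FPKM in ISO 1 to 3, against 3.90, 5.56 and 7.40 FPKM in saline 1 to 3. Its log2 fold change was 0.20 with an SE of 0.27 (limma, adjusted p = 0.772), 0.39 without saline 3 and −0.04 after quantile normalization. Eif4e3, an atypical cap-binding family member, had the highest level per length of the 3. Its recovered length was 2513 bases, against 9905 bases for Eif4e (6008 in the GENCODE M21 exons). Eif4e held more reads than Eif4e3 in every library. Eif4e3 had 21.9, 21.3 and 19.1 FPKM in ISO 1 to 3, against 15.3, 24.0 and 34.0 FPKM in saline 1 to 3. The ISO values lay inside the saline range, and the log2 fold change was −0.16 with an SE of 0.31 (limma, adjusted p = 0.840) and 0.10 without saline 3.

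All 3 eIF4G scaffold genes had a fold change above 0, with a median of 0.37 that was 0.15 without saline 3. Eif4g3 had 20.5, 19.8 and 31.1 FPKM in ISO 1 to 3, against 18.7, 24.0 and 4.82 FPKM in saline 1 to 3. The groups overlapped and saline 3 was the lowest, and the log2 fold change of 0.77 (SE 0.55, limma, adjusted p = 0.699) was 0.13 without it. Eif4g1, the main scaffold, had 30.1, 33.3 and 32.0 FPKM in ISO 1 to 3, against 27.1, 27.7 and 31.1 FPKM in saline 1 to 3. In log2 terms its fold change was 0.15 with an SE of 0.20 (limma, adjusted p = 0.772), and −0.06 after median-of-ratios scaling. Eif4g2, which lacks the eIF4E site and serves cap-independent initiation, had 93.9, 102 and 83.7 FPKM in ISO 1 to 3, against 86.8, 81.1 and 52.6 FPKM in saline 1 to 3. It was the most abundant scaffold gene in every library.

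The inhibitors that bind eIF4E are released from it when mTOR phosphorylates them, and their transcripts went in different directions in saline 3. Eif4ebp1 had 63.7, 50.4 and 94.8 FPKM in ISO 1 to 3, against 60.5, 48.6 and 170 FPKM in saline 1 to 3. Its log2 fold change was −0.24 with an SE of 0.49 (limma, adjusted p = 0.853), and 0.31 without saline 3. Eif4ebp2 had 17.8, 16.8 and 19.0 FPKM in ISO 1 to 3, against 15.8, 18.9 and 11.4 FPKM in saline 1 to 3, with a log2 fold change of 0.23 (SE 0.25, limma, adjusted p = 0.735) that was 0.04 without saline 3. Both overlapped between the groups. Eif4ebp3, of whose 50-base stretches 65.5% occur in other genes, ranged from 39.1 to 52.2 FPKM in ISO and from 21.9 to 68.6 FPKM in saline. Eif4enif1, the eIF4E transporter, ranged from 17.8 to 23.6 FPKM in ISO and from 15.0 to 21.9 FPKM in saline.

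The start codon factors overlapped between the groups. Eif1, the small protein that guards start codon choice and the most abundant member, had 577, 625 and 491 FPKM in ISO 1 to 3, against 532, 433 and 467 FPKM in saline 1 to 3. ISO 3 lay below saline 1. Eif1a had 8.99, 9.61 and 12.4 FPKM in ISO 1 to 3, against 6.69, 9.16 and 7.27 FPKM in saline 1 to 3, with a log2 fold change of 0.38 (SE 0.24, limma, adjusted p = 0.699). Eif1b, a paralogue of Eif1, had 56.5, 50.8 and 70.1 FPKM in ISO 1 to 3, against 68.8, 63.5 and 66.0 FPKM in saline 1 to 3, with a log2 fold change of −0.17 (SE 0.22, limma, adjusted p = 0.762). Each overlapped between the groups by 1 library. Eif1ax ranged from 43.9 to 54.8 FPKM in ISO and from 39.0 to 67.3 FPKM in saline, and Eif1ad from 9.33 to 14.6 FPKM in ISO and from 10.4 to 12.5 FPKM in saline.

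The genes of subunit joining and later steps held the most variable members. Eif5a (chr11:69916714-69921958, minus strand), the hypusine-bearing factor that helps the ribosome through difficult peptide bonds, had 0.336, 18.9 and 1.55 FPKM in ISO 1 to 3, against 8.72, 1.41 and 38.7 FPKM in saline 1 to 3. The values rest on 10, 392 and 35 reads in ISO 1 to 3 and 347, 36 and 433 reads in saline 1 to 3. Both groups held high and low libraries, and the exact Poisson intervals of ISO 1 (0.161 to 0.618 FPKM) and ISO 2 (17.03 to 20.8 FPKM) were far apart, so counting error is smaller than this spread. The log2 fold change was −1.26 with an SE of 1.25 (limma, adjusted p = 0.717), and −0.25 without saline 3. The length behind its FPKM was recovered as 4034 bases, while the GENCODE M21 exons of the gene span 2377 bases, so the authors' gene model differs from that annotation. This does not set Eif5a apart. Other members differed too, as Eif4e with 9905 against 6008 bases and Eif3e with 1541 against 6719 bases.

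Eif5b, the GTPase that joins the ribosomal subunits (chr1:37998010-38055579, plus strand), had 30.6, 27.9 and 39.7 FPKM in ISO 1 to 3, against 21.8, 43.0 and 204 FPKM in saline 1 to 3. Saline 3 alone was high, with an exact Poisson interval of 198 to 210 FPKM. The log2 fold change of −0.82 (SE 0.73, limma, adjusted p = 0.701) was 0.07 without it. Eif5, which triggers GTP hydrolysis on eIF2, had 62.5, 61.5 and 73.3 FPKM in ISO 1 to 3, against 70.4, 71.2 and 40.0 FPKM in saline 1 to 3. Eif6, which keeps the large ribosomal subunit from joining early, had 17.3, 28.3 and 20.1 FPKM in ISO 1 to 3, against 11.8, 16.5 and 25.5 FPKM in saline 1 to 3. In log2 terms its fold change was 0.31 with an SE of 0.34 (limma, adjusted p = 0.733), and 0.58 without saline 3.

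Ratios between paralogues, as differences of log2(FPKM + 1), compare genes inside 1 library. Of 9 pairs tested by an exact two-sided permutation test, none reached the smallest p that 3 against 3 libraries allow, 0.1, and all adjusted p were 0.8. Eif4a2 made up 49.9%, 40.4% and 41.2% of the summed FPKM of Eif4a1 and Eif4a2 in ISO 1 to 3, against 48.3%, 42.8% and 30.2% in saline 1 to 3. The ISO and saline shares overlapped, and saline 3 was the lowest. The log2 ratio of Eif4a2 to Eif4a1 differed by 0.21 (ISO minus saline, exact permutation p = 0.8), and by −0.10 without saline 3. Eif4e2 against Eif4e differed by 0.26 (exact permutation p = 0.3), and Eif1b against Eif1 by −0.41 (exact permutation p = 0.3). Without saline 3 these were 0.25 and −0.40. Eif5a2 against Eif5a was left out because Eif5a2 is under the minimum level.

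**Figure D4:**
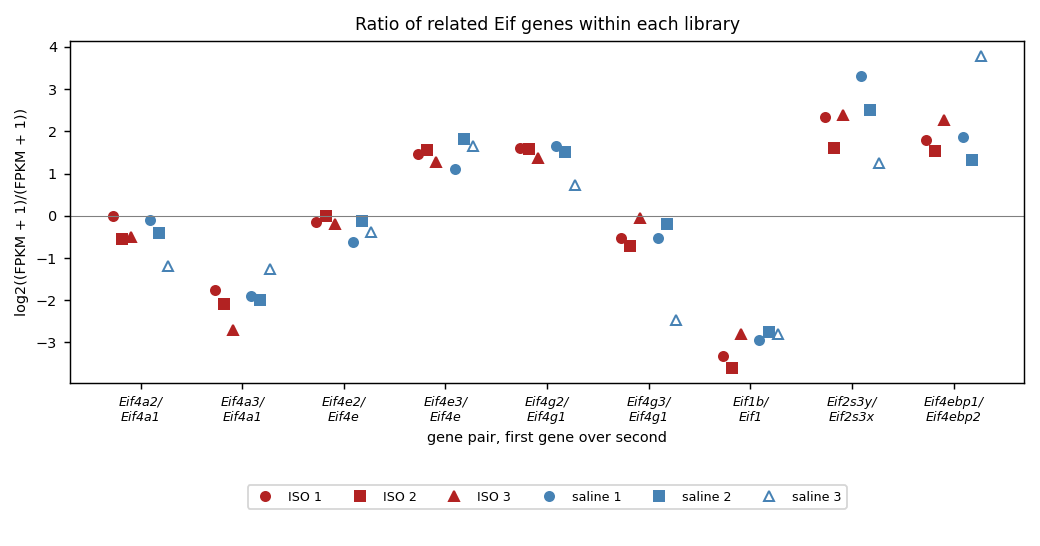
Log2 ratio of FPKM + 1 between paralogous initiation factor genes in each library (ISO red, left of saline, blue; circle, square and triangle for replicates 1, 2 and 3, open triangle saline 3). The ISO and saline points overlap for each of the 9 pairs, and saline 3 lies lowest for Eif4g3 over Eif4g1 and for Eif4a2 over Eif4a1.

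Members with and without the E-box in the promoter both changed their counts with saline 3 and with the scaling. Of the 8 members with CACGTG 4 had a fold change above 0, with a median of −0.00049, and of the 34 matched members without it 27 did, with a median of 0.18. Without saline 3, 6 of the 8 had a fold change above 0, with a median of 0.10, and 24 of the 34 did, with a median of 0.14. After median-of-ratios scaling 2 of the 8 did, with a median of −0.20, and 17 of the 34, with a median of −0.02. The difference between these gene sets was not tested.

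Genes that work with the initiation factors were also without a call. Of 16 initiation factors and partners that lack an Eif symbol, 10 were above 0 and 6 below, with a median log2 fold change of 0.14 and 0 called. After median-of-ratios scaling 7 of 16 were above 0. All ISO libraries were higher than all saline libraries for Pabpc1 and Ddx3x and lower for Gigyf1 and Paip2. Over all genes 12.8% lay higher and 3.72% lower in this way. Pabpc1, the poly(A)-binding protein that eIF4G bridges to the cap, had 125, 146 and 189 FPKM in ISO 1 to 3, against 78.4, 98.4 and 91.5 FPKM in saline 1 to 3. Saline 3 lay inside the saline range. On the log2 scale the fold change was 0.75 with an SE of 0.24 (limma, unadjusted p = 0.0163, adjusted p = 0.699), and 0.77 without saline 3. Ddx3x, a helicase of structured mRNA leaders, had 28.6, 35.9 and 40.8 FPKM in ISO 1 to 3, against 27.6, 26.5 and 16.8 FPKM in saline 1 to 3, with a log2 fold change of 0.57 (SE 0.28, limma, adjusted p = 0.699) that was 0.35 without saline 3. Gigyf1 and Paip2 are outside the naming rule and were chosen after their values were seen. Gigyf1, which works with the cap-binding repressor Eif4e2, had 12.7, 12.2 and 13.7 FPKM in ISO 1 to 3, against 15.1, 19.5 and 16.9 FPKM in saline 1 to 3, with a log2 fold change of −0.38 (SE 0.22, limma, adjusted p = 0.699). Paip2, an inhibitor of the poly(A)-binding protein, had 53.8, 50.2 and 53.7 FPKM in ISO 1 to 3, against 56.8, 57.5 and 64.6 FPKM in saline 1 to 3, with a log2 fold change of −0.18 (SE 0.20, limma, adjusted p = 0.739) that was −0.12 without saline 3.

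The targets of the eIF2 kinase pathway showed 10 genes above 0 and 5 below of 15, with a median of 0.26 that was 0.01 without saline 3, and 0 called. Sesn2, an ATF4 target that restrains mTOR complex 1, had 3.01, 2.70 and 3.42 FPKM in ISO 1 to 3, against 1.26, 0.716 and 0.271 FPKM in saline 1 to 3. Its groups did not overlap, and the log2 fold change was 1.24 with an SE of 0.32 (limma, unadjusted p = 0.00547, adjusted p = 0.699) and 1.03 without saline 3. Dnajc3, an inhibitor of eIF2 kinases, had 11.8, 12.5 and 11.8 FPKM in ISO 1 to 3, against 10.6, 7.97 and 3.26 FPKM in saline 1 to 3. It too was higher in every ISO library, with a log2 fold change of 0.77 (SE 0.38, limma, adjusted p = 0.699) that was 0.35 without saline 3. These 2 of the 15 genes lay higher in every ISO library, as did 12.8% of all genes.

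Of 15 genes of mTOR and MNK signalling to initiation 10 were above 0, with a median of 0.16 that was −0.08 without saline 3, and 0 were called. After median-of-ratios scaling 7 of 15 were above 0, with a median of −0.02. Ddit4, which inhibits mTOR complex 1, had 35.0, 37.0 and 63.3 FPKM in ISO 1 to 3, against 67.2, 49.3 and 105 FPKM in saline 1 to 3. The groups overlapped only through ISO 3, and the log2 fold change was −0.68 with an SE of 0.36 (limma, adjusted p = 0.699) and −0.40 without saline 3. Mlst8, a subunit of both mTOR complexes, had 7.52, 5.35 and 4.81 FPKM in ISO 1 to 3, against 3.72, 5.58 and 0.528 FPKM in saline 1 to 3. Its groups overlapped through saline 2, and the log2 fold change of 0.91 (SE 0.54, limma, adjusted p = 0.699) was 0.29 without saline 3. Of the 15 genes only Mtor, the kinase itself, had groups that did not overlap, where 16.5% of all genes had such groups. Mtor was chosen after its values were seen. It had 2.68, 2.96 and 2.86 FPKM in ISO 1 to 3, against 2.39, 2.09 and 1.05 FPKM in saline 1 to 3, all ISO libraries being higher, with a log2 fold change of 0.46 (SE 0.30, limma, adjusted p = 0.699) that was 0.24 without saline 3.

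Of 12 genes of elongation and termination 6 were above 0, of 8 exon junction complex genes 5, and of 3 mitochondrial initiation genes 3, with medians of 0.06, 0.05 and 0.26 and 0 called in each. Without saline 3 these counts were 9, 1 and 2. Magoh, a core partner of Eif4a3, had 40.3, 21.6 and 61.3 FPKM in ISO 1 to 3, against 74.4, 48.1 and 69.2 FPKM in saline 1 to 3, with a log2 fold change of −0.72 (SE 0.40, limma, adjusted p = 0.699). Its groups overlapped through ISO 3. The other genes of smallest p in these 3 lists had log2 fold changes of 0.60 for Gspt1, −0.37 for Dohh, −0.24 for Rbm8a, 0.59 for Mtif2 and 0.21 for Mtif3, with adjusted p of 0.699 to 0.739 (limma). Without saline 3 these were 0.32, −0.06, −0.20, −0.18 and 0.25. With all 6 libraries, Mtif3 was the one of these 5 whose ISO libraries all lay above the saline libraries, as did those of 12.8% of all genes.

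Cpeb4, the RNA-binding protein of the series title, had 2.47, 21.8 and 23.6 FPKM in ISO 1 to 3, against 4.45, 3.15 and 2.53 FPKM in saline 1 to 3, so ISO 1 lay below all saline libraries (log2 fold change 1.54, SE 0.74, limma, adjusted p = 0.699).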

How the data were processed

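The authors deposited FPKM values for 21989 gene symbols, in 1 column for each of the 6 libraries. Per the submitters' processing notes, the tools were Cufflinks 2.2.1, HTSeq 0.7.2, HISAT2 2.1.0, fastp 0.20.0, CASAVA 1.8 and DESeq, with no role or order given, on the build GRCm38. The annotation and the strand setting are not given in the sources used here. FPKM divides by gene length and library total, so abundant genes shift all others. Whole reads were recovered from the steps of the values for 100% of 16816 genes above 0 in at least 2 libraries (tolerance 0.0001 reads).

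Values were tested as log2(FPKM + 1), which understates changes of low genes, over 12269 genes with a mean of at least 1 FPKM, with limma 3.58.1 (trend) in R 4.3.3 and Benjamini-Hochberg adjustment at 0.05. The steps were tested on simulated data. Promoters and other values were handled in Python 3.11.15 (scipy 1.17.1, pandas 2.3.3, numpy 2.4.6). The members and gene lists were chosen with earlier results of these data known. Fold changes are given for the eIF4A genes and Eif5a, members with an unadjusted p under 0.05 or groups that do not overlap, the highest and lowest of each role, and the 2 smallest p of each partner list. Eif5b is named for its level in saline 3 and was chosen after its values were seen. All pairs of libraries within a group differed by more than sampling noise, the closest (ISO 1 and ISO 2) by 4.60 times. They were counted as separate samples, as labelled. This check cannot show that they came from separate animals. Of the members, 22 have exons that overlap another gene and 12 share over 10% of their 50-base stretches with other genes, so their values are less certain. Positions follow GENCODE M21 on GRCm38.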

Additional observations from a re-analysis of the deposited data

How the results depend on the processing

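Of 494 values recomputed under alternatives, 455 kept their direction and their side of the threshold or moved by less than the set limit. This count does not measure stability. The fold change of a gene could not change with the replicate block or with another minimum level. A large move of a gene without a change of sign also counted as kept. Examples are Eif4a2 (0.43, and 0.01 without saline 3) and Eif2ak1 (0.50, and 0.0014 with quality weights). Sample quality weights, highest for ISO 2 (5.50) and saline 1 (3.08) and lowest for ISO 3 (0.449) and saline 3 (0.0772), called 768 genes, among them 3 members higher in ISO, Eif2s3x (1.15, limma, adjusted p = 0.0274), Eif3f (0.57, limma, adjusted p = 0.0422) and Eif4b (0.52, limma, adjusted p = 0.0463). Leaving out 1 library called 0 to 16 genes, 16 without ISO 1 and 0 without saline 3, and 0 members. The members' median of 0.13 was −0.077 after median-of-ratios scaling, 0.042 after quantile normalization, −0.070 with limma-voom on recovered reads, and 0.058 (without saline 1) to 0.18 (without ISO 1) with 1 library left out. Members above 0 numbered 24 after median-of-ratios scaling and 21 with limma-voom. The 4 members with groups apart became 7 after median-of-ratios scaling, 8 after quantile normalization and 17 with rescaling and no saline 3. With 1 library left out they numbered 5 (without ISO 2) to 16 (without saline 3). The count was 8 without ISO 1, 12 without ISO 3, 13 without saline 1 and 11 without saline 2. Leaving out a library raised the share of all genes with groups apart too. That share was 16.5% with all 6 libraries, and 21.97% (without ISO 2) to 30.03% (without saline 2) with 1 left out. Without saline 3 it was 27.95%, against 30.2% of the members. After median-of-ratios scaling it was 14.77%, after quantile normalization 14.01%, and with rescaling and no saline 3 it was 27.53%.

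Without saline 3 the log2 fold change turned sign for 15 of the 53 members, Eif5b (0.07) among them. All alternatives were followed only for the 23 members whose fold changes are given by rule, which leaves out Eif5b. Of these 23, 8 turned sign under some alternative. They included Eif2d (−0.12 after median-of-ratios scaling, −0.21 after quantile normalization, −0.13 with limma-voom, −0.066 to 0.21 with 1 library left out), Eif4g1 (−0.061 after median-of-ratios scaling, −0.070 with limma-voom) and Eif4e2 (−0.041 after quantile normalization). With quality weights Eif4a2 (−0.19), Eif4e3 (0.28) and Eif5a (0.48) turned. The others were Eif4a1 and Eif4ebp1. With 1 library left out, Eif4a1 ran from −0.0011 to 0.44, Eif4e3 from −0.45 to 0.10 and Eif4ebp1 from −0.58 to 0.31. Paralogue differences in log2 ratio that turned sign ran from −0.10 to 0.45 (Eif4a2 over Eif4a1), −0.31 to 0.042 (Eif4e3 over Eif4e), −0.061 to 0.39 (Eif4g2 over Eif4g1), −0.077 to 1.06 (Eif4g3 over Eif4g1), −0.80 to 0.23 (Eif2s3y over Eif2s3x) and −0.97 to 0.26 (Eif4ebp1 over Eif4ebp2). The cause of these changes was not tested.

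Deviations of samples with the same replicate number correlated at 0.013, −0.148 and −0.025, and those with different numbers at −0.031 to 0.082. With 3 libraries per group this check cannot exclude pairing, and no pairing is stated in the labels. With the replicate block 0 genes were called, and the smallest adjusted p of a member was 0.752 (limma). With groups of equal size the block cannot change a fold change. The 38 members above 0 and the median of 0.13 therefore stayed as they were and say nothing about pairing. The depth was lowest for Eif5a in ISO 1 (10 reads) and Eif2ak3 in saline 3 (16 reads), and counting error there is largest.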
